A study of Mus musculus with 4 samples.

Results

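Thick ascending limb cells that carry little or no Lcn2 or Igfbp2 mRNA were described in kidneys of mice with anti-GBM serum nephritis. In this model a serum against the glomerular basement membrane injures the glomeruli, and the tubules downstream are exposed to the disease. Cells were chosen from their unique molecular identifier counts (UMIs, 1 per captured mRNA molecule). A cell was kept if it had 200 or more genes, 5 or more UMIs of Slc12a1, less than 0.15% of its UMIs from Slc34a1 (a proximal tubule transporter), fewer than 5 UMIs of Slc12a3 (the distal convoluted tubule transporter) and fewer than 3 UMIs of Lcn2 and Igfbp2 together. This left 420 thick limb cells of 15777 cells with 200 or more genes and of 16003 barcodes in all. The levels of those 5 genes were set by the choice of cells and are not results.

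Kidney cells of 4 groups of male C57Bl/6 mice, 9 weeks of age, were profiled one by one in droplets (10x single-cell RNA sequencing, 3' ends counted). All groups, the controls included, had the genotype Pax2.rtTA;TetO.Cre;R26.Confetti, a doxycycline-dependent, Pax2-driven Cre with a multicolour reporter, and all received the serum. From 1 day later the groups were given distilled water as vehicle, 15 mg/kg panobinostat, 10 mg/kg givinostat or 60 mg/kg ruxolitinib, and kidneys were taken 7 days after the serum. Panobinostat and givinostat inhibit histone deacetylases, and ruxolitinib inhibits the kinases JAK1 and JAK2. Each group had 2 animals and 1 library, and the labels do not say whether the library pooled both animals. Untreated mice without serum were not analysed here. With 1 library per group no difference between groups could be tested. Each ratio to vehicle below has an exact 95% interval from the counts, which covers counting error only and not the variation between animals. Sets of 4 values follow the order vehicle, panobinostat, givinostat and ruxolitinib.

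The thick ascending limb of the loop of Henle takes up sodium, potassium and chloride from the tubular fluid through the apical cotransporter NKCC2, encoded by Slc12a1, and lets no water follow, which dilutes the fluid and feeds the medullary salt gradient. Potassium recycles through the apical channel Kcnj1, and chloride and sodium leave on the basolateral side, where Bsnd is a subunit of channels and Atp1b1 a subunit of the sodium pump. The lumen-positive voltage that results drives calcium and magnesium between the cells through claudin pores. These cells are also the source of uromodulin (Umod), the most abundant protein of normal urine, and of epidermal growth factor (Egf). Lcn2 is a secreted protein widely used as a marker of tubular injury.

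The promoters of the cotransporter gene and of the secreted products are shown because these genes mark the cells. Egf was also among the 5 genes whose levels followed Umod most closely from cell to cell. Each sequence runs 5' to 3' on the gene's own strand from 250 bases before the annotated start to 50 after it, from RefSeq on GRCm38.p6. The Slc12a1 window is chr2:125152350-125152649 on the plus strand, the Umod window chr7:119479213-119479512 on the minus strand and the Egf window chr3:129755273-129755572 on the minus strand. Capitals mark GTTAAT, the core of the recognition site of HNF1, a kidney transcription factor.
Slc12a1: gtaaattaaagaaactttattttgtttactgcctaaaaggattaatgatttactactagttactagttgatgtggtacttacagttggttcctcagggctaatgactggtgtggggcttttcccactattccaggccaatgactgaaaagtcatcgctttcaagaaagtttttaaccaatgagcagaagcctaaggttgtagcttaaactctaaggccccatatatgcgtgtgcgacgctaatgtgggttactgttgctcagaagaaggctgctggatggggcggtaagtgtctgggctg
Umod: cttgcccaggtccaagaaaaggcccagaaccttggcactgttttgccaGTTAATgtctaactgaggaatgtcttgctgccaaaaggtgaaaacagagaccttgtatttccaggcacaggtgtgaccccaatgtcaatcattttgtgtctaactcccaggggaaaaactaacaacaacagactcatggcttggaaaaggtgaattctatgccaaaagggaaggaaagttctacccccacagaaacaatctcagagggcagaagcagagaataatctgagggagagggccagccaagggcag
Egf: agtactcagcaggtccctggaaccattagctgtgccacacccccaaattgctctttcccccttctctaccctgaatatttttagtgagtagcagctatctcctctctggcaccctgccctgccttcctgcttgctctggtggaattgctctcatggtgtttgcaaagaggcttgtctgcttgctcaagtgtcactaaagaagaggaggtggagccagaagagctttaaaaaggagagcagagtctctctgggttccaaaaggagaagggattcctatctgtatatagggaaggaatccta
Both strands were searched for this motif, for AAGGTCA, which the oestrogen-related receptors bind, and for the TATA box, written TATAAA, and no match overlapped another. The only match in these windows was 1 GTTAAT in the Umod promoter. GTTAAT was present in 7.10% of 32851 promoters of the same length, AAGGTCA in 4.72% and TATAAA in 13.6%. A match is a description of the letters, and the lack of one says only that these letters are not in this window. Ppp1r1a, a further marker, is named only.

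The libraries held 130, 79, 86 and 125 thick limb cells with 1514297, 663618, 1201308 and 1362877 UMIs. Median UMIs per cell were 10704, 7098, 11096 and 9250, so panobinostat cells were the shallowest, and median mitochondrial shares were 14.3, 14.9, 10.7 and 11%. The shallowest cell of each library, over all cell types, had between 2920 and 5272 UMIs. No barcode of a thick limb cell was shared between libraries, against 19 of 15758 barcode sequences over all cells. Some gated cells also held mRNA of other cell types: 15, 12, 10 and 20 cells had 10 or more UMIs of a marker list for leukocytes, endothelium, intercalated cells, erythroid cells, distal convoluted tubule, principal cells, stroma or podocytes. Leukocyte markers were the most frequent of these lists in each library (9, 10, 9 and 8 cells), with endothelial markers close behind in ruxolitinib (7 cells). Summed leukocyte marker levels were 521, 1576, 693 and 671 CPM (the counts-per-million scale, with each library's summed thick limb UMIs as the total), proximal tubule marker levels, without Slc34a1, 1411, 3082, 1611 and 1208 CPM, and erythroid marker levels 24.4, 5122, 102 and 7360 CPM. The stroma list reached 169 CPM with vehicle and 4.52 CPM with panobinostat and was at 0 with givinostat and ruxolitinib. The podocyte list summed to 29.1, 7.53, 0.832 and 17.6 CPM, although its members Nphs1 and Wt1 were at 0 in all 4 libraries. In vehicle 2 cells had 10 or more UMIs of the podocyte list. Results that rest on the mixed cells are given with and without them, which leaves 115, 67, 76 and 105 cells.

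The defining markers were present in nearly every cell of every library, so the label of the cells held. Umod mRNA was found in 129 of 130, 77 of 79, 85 of 86 and 125 of 125 cells. Umod UMIs, which free RNA can also give, appeared in other cells too: 23.2, 20.4, 30.7 and 29.2% of cells with 3 or more Ptprc UMIs and under 5 Slc12a1 UMIs (leukocytes, median 5941, 5364, 8646 and 6844 UMIs) had a Umod UMI, but at only 117, 129, 56.4 and 107 CPM. In thick limb cells Umod stood at 22349, 18918, 18723 and 17030 CPM. The vehicle library was highest and the ruxolitinib library lowest. The ratios to vehicle were 0.846 (0.829 to 0.864) with panobinostat, 0.838 (0.824 to 0.852) with givinostat and 0.762 (0.749 to 0.775) with ruxolitinib. Single cells spread far more widely than the libraries: the middle 80% of vehicle cells ran from 10153 to 35583 CPM around a median of 21579, and those of ruxolitinib cells from 4842 to 32761 around 16328. The cell distributions of Umod in the 4 libraries therefore overlapped over most of their range.

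Egf, the growth factor precursor of the distal nephron, was at 5659, 5841, 7941 and 5648 CPM. Over all thick limb cells only the givinostat library stood apart, at 1.40 times vehicle (1.36 to 1.44). Panobinostat was at 1.03 (0.993 to 1.07) and ruxolitinib at 0.998 (0.968 to 1.03). Givinostat was also highest by the median cell, at 4927, 4642, 7849 and 4941 CPM, while panobinostat was lowest there. When every cell was thinned to 4000 UMIs before the choice of cells, the givinostat log2 ratio was 0.28 against 0.49 at full depth. By the claudin split described below, Egf was at 6584, 8747, 9083 and 5965 CPM in cells with Cldn16 only. In cells with Cldn10 only it was at 3692, 3186, 2863 and 4682 CPM, lowest in givinostat. Cells with both had 6846, 5852, 10370 and 5993 CPM. Cells with Cldn10 only were 29.2, 36.7, 19.8 and 41.6% of thick limb cells. The part of this mix in the givinostat ratio was not tested. Ppp1r1a, an inhibitor subunit of protein phosphatase 1, was at 1443, 1480, 1443 and 1547 CPM, nearly level across the libraries. Slc12a1 itself, which chose the cells, was at 5210, 5407, 5737 and 5467 CPM.

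**Figure D1:**
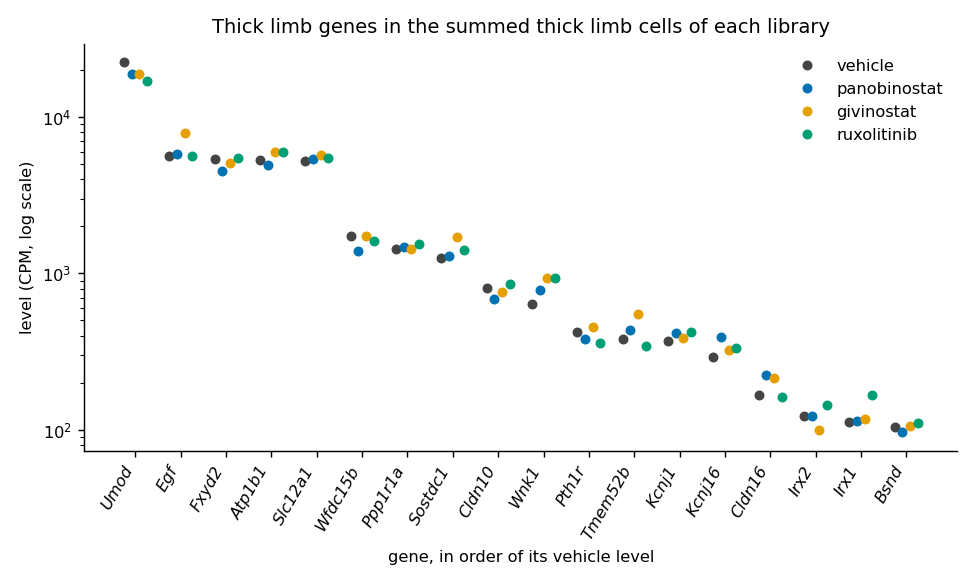
Levels of thick limb genes in thick limb cells of each library, as CPM of the summed UMIs on a log axis, 1 point per library with n = 1 library per group. Levels compare the 4 libraries for 1 gene and not genes with each other; the points of each gene lie close together, with Umod highest in vehicle (22349 CPM) and Egf highest in givinostat (7941 CPM).

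The machinery of salt transport was nearly level under the drugs. A gene was counted as past the fold if its log2 ratio to vehicle, with 5 CPM added to both levels, exceeded 0.58 (1.5-fold) in either direction. Of 12 salt transport genes with 20 CPM or more in at least 1 of the libraries compared, Slc12a1 not counted, 0 passed with any drug. Over all genes at 20 CPM or more, 12.8% passed with panobinostat, 8.33% with givinostat and 7.35% with ruxolitinib. The medians of the list were -0.02, 0.14 and 0.04 on the log2 scale for panobinostat, givinostat and ruxolitinib, beside 0.01, 0.02 and 0.06 over all genes.

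Among the channels, Kcnj1, the apical potassium channel ROMK, was at 372, 414, 387 and 421 CPM. Bsnd, a basolateral channel subunit, was at 104, 96.4, 106 and 110 CPM. Neither gene was more than 1.5-fold from vehicle in any library. Kcnj16, a basolateral potassium channel subunit, was at 292, 392, 324 and 335 CPM, with its highest ratio in panobinostat at 1.34 (1.15 to 1.57). The sodium pump subunits Atp1b1 and Fxyd2 were level within similar limits, at 5308, 4971, 5988 and 5944 CPM and at 5370, 4500, 5068 and 5497 CPM. Slc9a3, the apical sodium-proton exchanger NHE3, was lowest in vehicle, at 143, 181, 195 and 169 CPM.

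Among genes of kinases that act on the cotransporter, Wnk1 mRNA was lowest in vehicle. The WNK1 kinase activates the SPAK and OSR1 kinases, which phosphorylate NKCC2. Counts of 3' ends do not tell transcript forms of Wnk1 apart, and the level of the kinase was not measured. Wnk1 mRNA was at 635, 781, 930 and 930 CPM. The ratios were 1.23 (1.10 to 1.37), 1.47 (1.34 to 1.60) and 1.46 (1.35 to 1.59), just under the 1.5-fold mark in the last 2. Without the mixed cells Wnk1 passed it in givinostat (log2 ratio 0.62) and in ruxolitinib (0.71). Wnk4 was at 257, 208, 298 and 291 CPM and Stk39, which encodes SPAK, at 122, 116, 129 and 136 CPM. The only one of 10 kinase and regulator genes past the fold was Sgk1, a kinase induced by mineralocorticoids, at 31.7, 30.1, 11.7 and 22.0 CPM, with a givinostat ratio of 0.368 (0.187 to 0.678), beside 3.46% of all genes past it lower. Without the mixed cells it was under 20 CPM in both libraries, with a log2 ratio of -0.79, so 0 of 9 were past the fold lower.

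Junction, receptor and transcription factor genes were likewise mostly near vehicle. The claudins Cldn10, Cldn16 and Cldn19 form the paracellular pores, for sodium in the first case and for calcium and magnesium in the others. Cldn10 was at 811, 687, 761 and 858 CPM, Cldn16 at 166, 223, 213 and 162 CPM and Cldn19 at 298, 270, 259 and 304 CPM. Casr, the calcium-sensing receptor that restrains calcium uptake here, was at 63.4, 76.9, 64.1 and 57.2 CPM. Of the 10 or 11 junction and divalent cation genes measured per drug and the 12 genes of secreted and surface proteins, 0 passed the fold with any drug.

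Of 9 or 10 receptor genes per drug, 2 passed, both higher with ruxolitinib (4.73% of all genes) and both low in level: Avpr2, the vasopressin receptor, at 9.25, 12.1, 7.49 and 22.0 CPM, and Nr3c2, the mineralocorticoid receptor, at 21.1, 21.1, 20 and 34.5 CPM. Avpr2 is also a principal cell marker, and 1 ruxolitinib cell had 10 or more UMIs of the principal cell list. Without the mixed cells 1 of 9 passed with ruxolitinib. Pth1r, the parathyroid hormone receptor, was at 423, 381, 455 and 357 CPM, and Ptger3, a prostaglandin receptor, at 269, 265, 278 and 261 CPM. Of 14 transcription factor genes only Sim2 passed, lower with panobinostat at 57.5, 31.6, 53.3 and 59.4 CPM (ratio 0.551, 0.325 to 0.895). This single call stands beside 5.0% of all genes past the fold lower, and Sim2 had 21 UMIs in the panobinostat cells. Tfap2b, a factor of the distal nephron, was level at 362, 372, 362 and 368 CPM.

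Within the thick limb the cells fell along a claudin axis. Cldn16 and Cldn10 were together in fewer cells than independent occurrence would give. Cells with a Cldn16 UMI and no Cldn10 UMI numbered 38, 30, 26 and 33, and cells with Cldn10 and no Cldn16 numbered 38, 29, 17 and 52. Both genes were found in 49, 18, 37 and 34 cells, where independence within a library would give 58.2, 28.6, 39.6 and 46.1, and 5, 2, 6 and 6 cells had neither. The observed number was lower in each of the 4 libraries. It was lower in each of them too after thinning to 4000 UMIs, with 24, 9, 20 and 22 cells against 32.6, 16.3, 24.5 and 31.3, and in the total without mixed cells, with 123 against 154. Cldn10 was also found outside the limb and is carried by free RNA to some extent. A UMI of it was in 10.1, 12.9, 10.5 and 8.86% of leukocytes, against 0.559, 0.370, 0.592 and 0.591% for Cldn16. In proximal tubule cells, chosen by Slc34a1, the shares were 83.9, 78.7, 85.5 and 77.0% for Cldn10, at 216, 241, 211 and 184 CPM. For Cldn16 the shares there were 0.612, 0.748, 0.490 and 0.735%. The part of proximal tubule RNA in the Cldn10 UMIs of thick limb cells, and so in the claudin split, was not tested.

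The claudin pair brought other genes with it. With 20 CPM added to each level and 100 CPM required on at least 1 side, 27 of 1426 genes (1.89%) were past 1.5-fold higher in the Cldn16 cells in each of the 4 libraries, and 24 (1.68%) were past it higher in the Cldn10 cells. The split used the counts of these cells, so the counts describe the 2 sides and test nothing. Tmem52b, a membrane protein gene, stood at 1042, 1034, 1301 and 962 CPM in Cldn16 cells and at 24.1, 16.4, 13.0 and 24.2 CPM in Cldn10 cells. Foxq1, a forkhead transcription factor, stood at 298, 400, 303 and 338 CPM against 2.19, 4.11, 0 and 7.43 CPM. These 2 genes came close to an on-off pattern in every library.

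Of 10 salt transport genes at 100 CPM or more, 3 were past the fold higher in Cldn16 cells in each library, the basolateral potassium channel genes Kcnj10 and Kcnj16 and the channel subunit Bsnd, beside 1.89% of all genes. Kcnj10 was at 120, 173, 180 and 113 CPM against 17.6, 24.6, 43.4 and 39.0 CPM, and its partner Kcnj16 at 338, 507, 433 and 448 CPM against 187, 209, 191 and 247 CPM. Pth1r was at 711, 560, 652 and 655 CPM against 213, 205, 99.8 and 203 CPM, and Wnk1 at 1024, 1380, 1691 and 1782 CPM against 327, 328, 273 and 517 CPM. Sostdc1 (a secreted BMP antagonist) and Tmem207 were past the fold on the same side, and Casr and Vdr, the vitamin D receptor, were not past it in every library (lowest log2 ratios 0.58 and 0.11). Egf was higher there in each library, at 6584, 8747, 9083 and 5965 CPM against 3692, 3186, 2863 and 4682 CPM, but did not pass the fold in ruxolitinib. Col5a2, Zfp503 and Ggt1, picked out after their values were seen, were at 226, 376 and 359 CPM over all Cldn16 cells and at 32.0, 55.9 and 117 CPM over all Cldn10 cells.

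Ptger3 and 2 of the 3 Iroquois factors of the list lay on the Cldn10 side. Ptger3, which is known for its place in the medullary limb, was at 327, 402, 512 and 394 CPM in Cldn10 cells and at 45.1, 33.0, 53.4 and 46.2 CPM in Cldn16 cells. Irx1 was at 123, 193, 104 and 240 CPM against 2.26, 0, 25.3 and 8.66 CPM, and Irx2 at 103, 168, 91.1 and 188 CPM against 20.3, 12.4, 30.9 and 23.1 CPM. Irx3, under 100 CPM on both sides, lay on the Cldn16 side instead, at 95.1 CPM over all Cldn16 cells and 19.8 CPM over all Cldn10 cells (log2 1.08 to 1.69 in the 4 libraries). Eprn, Nccrp1 and Esam, picked out after their values were seen, were at 390, 164 and 102 CPM over all Cldn10 cells and at 17.3, 24.5 and 7.92 CPM over all Cldn16 cells. Of 17 immediate early genes at 100 CPM or more, 2 (Dusp1 and Klf2) were past the fold on this side in each library, beside 1.56% of 1542 genes of all kinds. Counted without the fold, 11 of the 17, these 2 included, were higher here in each library, as were 151 of the 1542. Of 11 heat shock genes 1, Hspa1a, was past the fold, beside the same 1.56%. Dusp1 was at 924, 1063, 2265 and 1019 CPM against 528, 309, 480 and 474 CPM in Cldn16 cells, and Hspa1a at 382, 382, 603 and 426 CPM against 85.7, 148, 70.2 and 214 CPM. Whether handling of the tissue differed for these cells was not tested.

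The defining markers differed in how they fell on the sides. Over all libraries Umod was at 18060 CPM in Cldn16 cells and 19025 in Cldn10 cells, near equal, and Slc12a1, set by the choice of cells, at 4792 and 5457 CPM. Egf and Ppp1r1a were higher in Cldn16 cells in each library, with log2 ratios of 0.35 to 1.66 and 0.17 to 0.80. Slc5a3, the osmolyte transporter of the medullary list, was at 717 and 1101 CPM without passing the fold in every library. Beside the claudins that made the split, 5 genes of the list written for the cortical limb and 4 of that for the medullary limb reached 100 CPM. Of the first, Kcnj10, Pth1r and Tmem207 were past the fold higher in Cldn16 cells in all 4 libraries (1.89% of all genes were), and Cldn19 had a library below 0 (log2 -0.20 to 0.47). Of the second, Ptger3 was past it higher in Cldn10 cells (1.68% of all genes), while Sfrp1, a secreted WNT antagonist, was higher in Cldn16 cells in each library, at 677 and 408 CPM (log2 0.33 to 1.03).

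**Figure D2:**
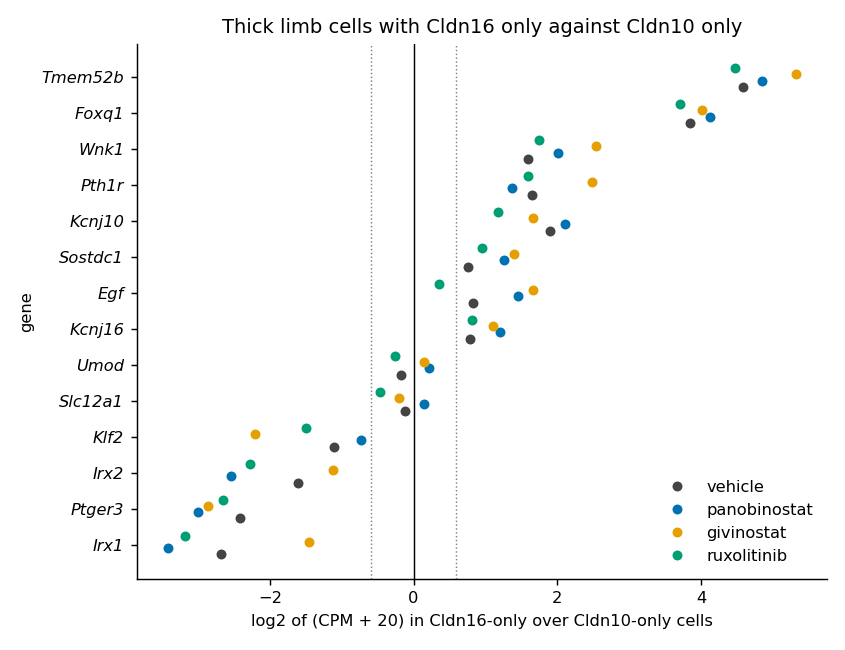
Log2 ratio of the level in cells with a Cldn16 UMI only to that in cells with a Cldn10 UMI only, with 20 CPM added to each level, 1 point per gene and library (n = 1 library per group) and dotted lines at 1.5-fold. Tmem52b, Foxq1, Kcnj10, Pth1r and Wnk1 lie on the Cldn16 side (above 0) and Ptger3, Irx1 and Irx2 on the Cldn10 side (below 0) in each of the 4 libraries, while Umod and Slc12a1 have points on both sides of 0.

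Thick limb cells with and without Lcn2 or Igfbp2 were next set side by side. The loop cells with 3 or more UMIs of these genes and otherwise the same limits numbered 80, 45, 74 and 117. They were deeper in every library, with median UMIs of 12790, 8133, 14505 and 11206 against 10704, 7098, 11096 and 9250. The limit is on raw UMIs, and the part of depth in the split was not tested. Of 1736 genes at 100 CPM or more on either side, 19 (1.09%) were past 1.5-fold higher in the cells without Lcn2 in all 4 libraries and 50 (2.88%) were past it lower. The choice of cells used counts of the same cells, so these numbers carry no test. Umod was about equal, at 22349, 18918, 18723 and 17030 CPM against 24749, 19586, 20345 and 17441 CPM in the Lcn2 or Igfbp2 cells. Its order over the libraries was the same in both kinds of cell except that givinostat and panobinostat, close in both, changed places.

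Egf was higher in the cells without Lcn2. It was at 5659, 5841, 7941 and 5648 CPM there and at 2494, 2057, 2326 and 1425 CPM in the Lcn2 or Igfbp2 cells, and in each library the first value was more than 2-fold the second. Wnk1 differed in the same direction, with 356, 335, 304 and 296 CPM in the Lcn2 or Igfbp2 cells, as did Tmem52b (250, 101, 124 and 124 CPM there). Wnk4 was at 154, 131, 144 and 119 CPM in those cells, below the cells without Lcn2 in each library. Lpl, lipoprotein lipase, picked out after its values were seen, was at 435, 413, 347 and 346 CPM against 197, 148, 139 and 137 CPM. Idh2, a mitochondrial isocitrate dehydrogenase picked out in the same way, was at 696, 662, 685 and 715 CPM against 445, 362, 380 and 321 CPM.

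Of 16 tubular injury genes at 100 CPM or more, without Lcn2 and Igfbp2, 7 were past the fold lower in the cells without Lcn2 in each library, beside 2.88% of all genes, and 0 higher. These were Spp1, Clu, Krt8, S100a11, Anxa2, Sox4 and Cd24a, while Krt7 (log2 -0.62 to 0.04), Vim (-2.88 to 1.31) and Krt18 (-3.13 to -0.02) were not. Other lists were lower too: of 18 immediate early genes 1, Klf4, was past the fold lower in each library. Counted without the fold, 16 of those 18 and 13 of the 16 injury genes were lower in each library. The share of all genes lower in this way was not counted. Spp1, osteopontin, was at 5614, 7189, 6644 and 7777 CPM in cells without Lcn2 and at 28151, 30747, 37131 and 39270 CPM in those with it. Clu, the secreted chaperone clusterin, was at 109, 154, 206 and 258 CPM against 957, 1461, 1587 and 1250 CPM. Krt8, a keratin of simple epithelia, was at 192, 170, 221 and 196 CPM against 466, 732, 793 and 655 CPM. Adamts1, a secreted protease picked out after its values were seen, was at 49.5, 34.7, 35.0 and 54.3 CPM against 260, 192, 364 and 282 CPM. For these 4 genes the values of the 2 kinds of cell did not overlap over the libraries, but the share of all genes with such a gap was not counted. The cells were parted by their Lcn2 and Igfbp2 UMIs, so the gap describes the parting and tests nothing.

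The mix of claudin sides differed between the kinds of cell in some libraries. The Cldn16-only share was 29.2, 38.0, 30.2 and 26.4% of cells without Lcn2 and 28.8, 24.4, 32.4 and 21.4% of cells with it, and the Cldn10-only share 29.2, 36.7, 19.8 and 41.6% against 25, 37.8, 28.4 and 23.9%. Within each side Egf, Wnk1, Lpl and Idh2 were higher and Spp1, Clu, Krt8, Adamts1 and Cd24a lower without Lcn2 in each library. On the Cldn10 side Tmem52b was lower with panobinostat (log2 -1.68) and Sox4 higher with vehicle (0.16), against their direction elsewhere. Egf was higher in cells without Lcn2 by 0.98, 1.59, 2.78 and 1.64 (log2) on the Cldn16 side and by 0.33, 0.84, 1.34 and 2.40 on the Cldn10 side. Clu was lower on both, with log2 values from -1.05 to -4.02. Median mitochondrial shares were 10.1, 7.29, 6.16 and 6.13% in the Lcn2 or Igfbp2 cells and thus below those of the cells without Lcn2 in every library, and the part of this in the gene differences was not tested.

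**Figure D3:**
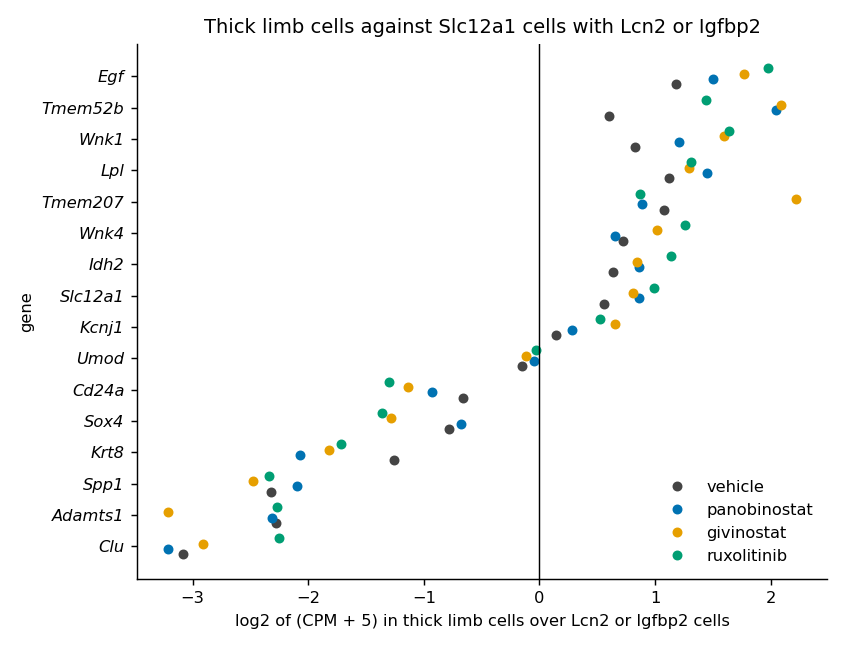
Log2 ratio of the level in thick limb cells without Lcn2 to that in loop cells with 3 or more UMIs of Lcn2 and Igfbp2, with 5 CPM added to each level, 1 point per gene and library (n = 1 library per group). Egf, Wnk1 and Lpl lie above 0 (higher in the cells without Lcn2) and Spp1, Clu, Krt8 and Adamts1 below 0 in all 4 libraries, and Umod lies near 0.

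The boundary of the choice at Lcn2 and Igfbp2 was gradual. Among chosen cells, the 300 with no UMI of Lcn2 or Igfbp2 had Spp1 at 5717 CPM, the 72 with 1 UMI at 7181 CPM and the 48 with 2 UMIs at 11655 CPM. Just outside, 55 cells with 3 to 4 UMIs had Spp1 at 18092 CPM, and their Umod, at 22909 CPM, was close to the 17393 CPM of the cells with 2. On the Slc12a1 side the levels fell at the limit. There 9 cells with 5 to 6 UMIs had Umod at 6915 CPM and Egf at 2102 CPM. The 12 cells just outside, with 3 to 4 UMIs, had Umod at 2168 CPM and Egf at 255 CPM.

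Against the next segment, cells with 5 or more Slc12a3 UMIs, the difference was wider. Of 1656 genes, 125 (7.55%) were higher in thick limb cells in all 4 libraries and 49 (2.96%) were lower. Umod was at 3482, 3625, 2587 and 3341 CPM and Egf at 922, 1334, 1326 and 862 CPM in the Slc12a3 cells, well below the thick limb. Wnk1 had the reverse pattern, at 2820, 2326, 2465 and 2043 CPM in the Slc12a3 cells, as did Tmem52b at 1295, 1189, 1322 and 930 CPM. The Cldn16 cells of the thick limb, with Wnk1 at 1024, 1380, 1691 and 1782 CPM, lay between the Cldn10 cells and the Slc12a3 cells in each library.

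Thick limb cells without Lcn2 made up a smaller share of the panobinostat library than of the vehicle library. They were 130 of 3930 cells with vehicle (3.31%, exact Clopper-Pearson 95% interval 2.77 to 3.92), 79 of 4396 with panobinostat (1.80%, 1.43 to 2.23), 86 of 3472 with givinostat (2.48%, 1.99 to 3.05) and 125 of 3979 with ruxolitinib (3.14%, 2.62 to 3.73). The share ratios to vehicle were 0.543 (0.405 to 0.724), 0.749 (0.563 to 0.991) and 0.95 (0.737 to 1.22). A share depends on how many cells of every other type were recovered, and cells with no Ptprc UMI as denominator gave 0.440, 0.878 and 0.906. The givinostat interval then ran from 0.642 to 1.19, so the lower share there was not distinct from vehicle by counting error. The lowest UMI count per cell also differed between libraries, and holding all libraries to 5272 UMIs gave 0.507, 0.627 and 0.797.

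Loop cells with Lcn2 or Igfbp2 did not follow the same order. Their shares were 2.04, 1.02, 2.13 and 2.94% and their ratios to vehicle 0.503 (0.341 to 0.733), 1.05 (0.753 to 1.45) and 1.44 (1.08 to 1.94). Cells without Lcn2 were therefore 61.9, 63.7, 53.8 and 51.7% of the cells of both kinds, with intervals from 55.0 to 68.5%, 54.6 to 72.2%, 45.7 to 61.7% and 45.2 to 58.1%. The vehicle and panobinostat libraries were close in this split although both kinds of cell made up a smaller share of the panobinostat library.

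**Figure D4:**
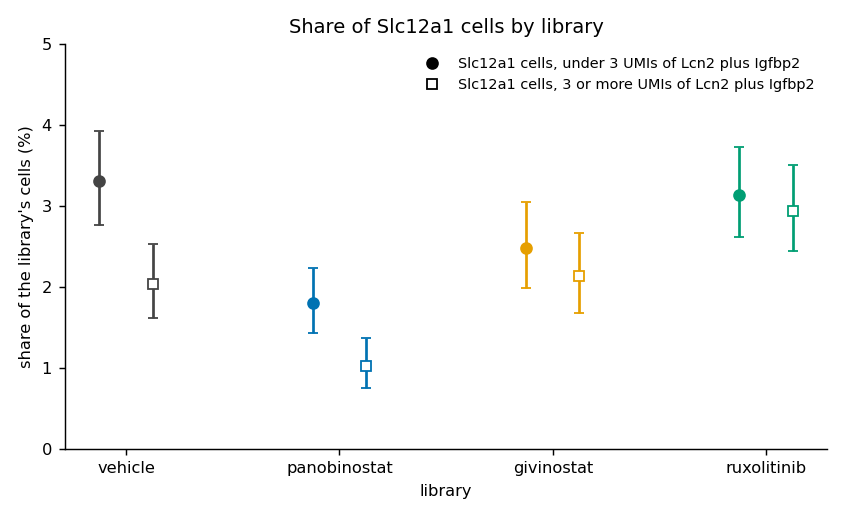
Share of each library's cells with 200 or more genes that were thick limb cells without Lcn2 or loop cells with Lcn2 or Igfbp2, in percent, with exact 95% intervals for counting error as bars and n = 1 library per group. The panobinostat library has the lowest share of both, 1.80% and 1.02%.

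With panobinostat, a hydroxamate inhibitor of many histone deacetylases, immune genes made up most of the highest ratios and clock genes a part of the lower ones. Of 1483 genes at 100 CPM or more in at least 1 of both libraries, 94 (6.34%) were past 1.5-fold, 59 higher (3.98%) and 35 lower (2.36%). Without the mixed cells 57 were, 30 higher and 27 lower. The panobinostat thick limb cells held the fewest UMIs and the highest summed leukocyte and proximal tubule marker levels. Of 13 proximal tubule markers at 20 CPM or more, without Slc34a1, 12 were past the fold higher, beside 7.78% of all genes at that level.

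Leukocyte and antigen presentation genes had the highest ratios, led by Lsp1, Ccl4 and Cd52, and the MHC class II genes depended on the mixed cells. Cd74, the MHC class II invariant chain, was at 409, 1673, 325 and 322 CPM, a panobinostat log2 ratio of 2.02, but at 0.22 without the mixed cells. All 6 MHC class II genes measured were past the fold higher, beside 7.78% of all genes at 20 CPM or more. Without mixed cells 2 could be measured and neither passed. Of the 8 genes with the highest ratios, 5 encode MHC class II proteins or their invariant chain or the leukocyte protein Cd52, and the others were Lsp1, Ccl4 and the chemokine gene Cxcl10. For Cxcl10 (40.3 and 200 CPM) 69.9% of the panobinostat UMIs came from 1 cell. MHC class I had a median log2 ratio of 0.40 with all cells and -0.26 without the mixed cells.

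Most clock output genes were lower with panobinostat with and without the mixed cells. Of 12 genes of the circadian list, 6 were past the fold lower, beside 336 of all 6719 genes at 20 CPM or more (5.0%), and the median log2 ratio was -0.63 (0.01 over all genes). Without mixed cells these were 6 of 11 with a median of -0.67. Of the 12 genes 3 were above vehicle, Nr1d1 and Bhlhe40 among them. Dbp, a transcription factor driven directly by the clock, was at 180, 87.4, 111 and 174 CPM, with a panobinostat ratio of 0.485 (0.359 to 0.646). Usp2, a rhythmic deubiquitinase, was at 234, 130, 219 and 233 CPM (0.554, 0.433 to 0.703). Tef was at 96.4, 54.2, 93.2 and 99.8 CPM, Per3 at 55.5, 24.1, 47.4 and 62.4 CPM and Per2 at 29.1, 10.5, 36.6 and 28.6 CPM, and Ciart was the sixth. Panobinostat was the lowest library for each of these 5.

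Dbp was also lower with panobinostat outside the thick limb, with log2 ratios of -0.51 in cells with Slc34a1 at 0.15% or more of UMIs, -0.60 in the Lcn2 or Igfbp2 loop cells and -1.37 in the Slc12a3 cells. The hour at which the animals were killed is not given in the labels, so hour and drug cannot be told apart. With givinostat 3 of 12 list members were past the fold lower (3.46% of all genes), and with ruxolitinib 1 of 12 (2.62%).

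Respiratory chain genes were slightly lower and none passed the fold. With panobinostat 18 of 18 nuclear genes of the chain were below vehicle, with a median log2 ratio of -0.28 with all cells and -0.14 without mixed cells, while 51.2% of all genes were above vehicle. Cox4i1 was at 2505, 2027, 2265 and 2371 CPM and Cox8a at 2830, 2441, 2256 and 2570 CPM. The numbers above vehicle were 3 of 18 with givinostat and 4 of 18 with ruxolitinib, with medians of -0.17 and -0.08. Of all genes 52.6% and 59.4% were above vehicle with these 2 drugs. These genes are read against the UMI total, so each value is a share and not an amount per cell.

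Some feedback genes of JAK-STAT signalling were higher with panobinostat. Socs3, a feedback inhibitor of cytokine receptors, was at 293, 449, 246 and 208 CPM, with ratios of 1.53 (1.32 to 1.78) for panobinostat and 0.711 (0.610 to 0.827) for ruxolitinib. Of 11 list members 5 were past the fold higher with panobinostat, beside 7.78% of all genes, and 2 of 11 without the mixed cells. Ier3, an immediate early gene, was at 491, 769, 513 and 574 CPM. Cdkn1a, the cell cycle inhibitor p21 and a gene known to respond to deacetylase inhibition, was at 16.5, 54.2, 19.1 and 11.7 CPM, and it and Crip1 were the 2 of 11 genes of that list past the fold, both higher, beside 7.78% of all genes. Crip1 was below vehicle without the mixed cells.

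Several of the lowest ratios rested on 1 vehicle cell. Mgp, a matrix protein of mesenchymal cells, was at 433 CPM in vehicle and at 0 in the other libraries, but 89.6% of its vehicle UMIs lay in a single cell. For Myo5a this share was 94.3% and for Nupr1 86.8%. Hspb1, a small heat shock protein, was not of this kind, at 138, 63.3, 72.4 and 68.2 CPM. It was highest in vehicle, and its ratios were 0.459 (0.321 to 0.641), 0.525 (0.404 to 0.677) and 0.494 (0.383 to 0.634). The 3 drugs share the vehicle library, so these are not independent.

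Givinostat is also a hydroxamate deacetylase inhibitor, but it was given at another dose, so its values stand beside those of panobinostat without a comparison. Of 1472 genes 50 (3.40%) passed, 28 higher (1.90%) and 22 lower (1.49%), and 52 passed without the mixed cells. With totals that leave out mitochondrial and ribosomal genes the split was 37 higher and 45 lower. Cebpd, a transcription factor of the acute phase response, was at 73.3, 116, 157 and 135 CPM, with a givinostat ratio of 2.15 (1.69 to 2.74). Nme7, a nucleoside diphosphate kinase family gene, was at 309, 274, 572 and 365 CPM (1.85, 1.64 to 2.09), high in givinostat alone.

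Chaperones of the endoplasmic reticulum were slightly higher with givinostat and with ruxolitinib. With givinostat 15 of 18 were above vehicle and 3 past the fold, beside 4.87% of all genes past it higher, with a median log2 ratio of 0.21 against 0.02 over all genes. With ruxolitinib 15 of 18 were above vehicle and 3 past the fold, beside 4.73%, with a median of 0.14 against 0.06. Of all genes 52.6% were above vehicle with givinostat and 59.4% with ruxolitinib. Hspa5, the chaperone BiP, was at 431, 401, 564 and 672 CPM, and its ruxolitinib ratio was 1.56 (1.41 to 1.73). Manf, a secreted stress protein, was at 94.4, 76.9, 146 and 134 CPM, and Pdia4 at 35.0, 46.7, 54.9 and 66.8 CPM. Panobinostat had 7 of 17 above vehicle, beside 51.2% of all genes. Herpud1, which acts in the disposal of misfolded proteins, was at 304, 187, 341 and 291 CPM, lowest in panobinostat at 0.615 (0.50 to 0.752).

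Cryab, a small heat shock protein also found in thin limb cells, was at 194, 137, 40.8 and 85.8 CPM, lowest in givinostat at 0.210 (0.152 to 0.285). Of its vehicle UMIs 40.8% lay in 1 cell, and without the top cell of each library vehicle was at 117 CPM and the givinostat log2 ratio -1.53 against -2.12. The summed thin limb markers, of which Cryab is 1, were at 489, 325, 227 and 260 CPM, and the part of thin limb RNA in the Cryab values was not tested. Gpx4, which repairs lipid peroxides, was at 794, 545, 584 and 673 CPM, below vehicle with each drug.

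With ruxolitinib 56 of 1522 genes (3.68%) passed the fold, 33 higher (2.17%) and 23 lower (1.51%). The split was 25 higher and 31 lower with TMM totals, 24 and 32 with DESeq2 size factors and 36 and 40 with totals that leave out mitochondrial and ribosomal genes. Clu was at 109, 154, 206 and 258 CPM, with a ruxolitinib ratio of 2.37 (1.96 to 2.87) and a log2 ratio of 1.21 that was 0.59 without the mixed cells. Mcur1, a regulator of mitochondrial calcium uptake, was at 141, 172, 189 and 259 CPM (1.83, 1.54 to 2.18), with a log2 ratio of 0.85 both with and without the mixed cells. Fabp4, Igfbp5 and S100g had the highest ratios. Of the S100g UMIs 61.5% lay in 1 ruxolitinib cell, and summed endothelial markers were at 107, 105, 8.32 and 252 CPM.

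Most immediate early genes were below vehicle with ruxolitinib, and a few were past the fold. Junb was at 1349, 1558, 1235 and 893 CPM and Ier2 at 781, 634, 659 and 518 CPM, both lowest in ruxolitinib, and Hbegf, a ligand of the EGF receptor, was at 301, 191, 213 and 183 CPM. These were the 3 of 18 immediate early genes past the fold lower, beside 2.62% of all genes, and without mixed cells 1 of 18 was. In all 13 of the 18 were below vehicle and 5 above, while 59.4% of all genes were above. The median log2 ratio of the list was -0.19, against 0.06 over all genes. Dusp1 (0.07) and Klf2 (0.39) were among the 5 above. Fos and Jun were at 2449, 2944, 2610 and 2403 CPM and at 2964, 3161, 2422 and 2595 CPM. Gadd45b, a stress-response gene, was at 269, 222, 173 and 139 CPM, with a ruxolitinib ratio of 0.516 (0.432 to 0.615). Nr1d1, the clock repressor REV-ERB alpha, was at 131, 140, 80.7 and 74.8 CPM. Its ruxolitinib log2 ratio was -0.77 at full depth and -0.11 after thinning to 4000 UMIs.

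Interferon response genes, a textbook target of JAK inhibition, were measured by few members. With ruxolitinib 4 of 10 were past the fold lower and 1 higher, beside 2.62% and 4.73% of all genes, with a median log2 ratio of -0.26, and 2 of 6 were past it lower without the mixed cells, with a median of -0.46. Ifitm3 was at 90.5, 145, 19.1 and 44.0 CPM and Irf1 at 42.9, 43.7, 57.4 and 34.5 CPM. The deacetylase genes themselves were low, with Hdac1 at 47.5, 48.2, 47.4 and 39.6 CPM. Of the tubular injury list, without Lcn2 and Igfbp2 and with 17, 15 and 16 measured members, medians were 0.08, 0.08 and -0.12 for the 3 drugs, and Spp1 was lowest in vehicle at 5614, 7189, 6644 and 7777 CPM.

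**Figure D5:**
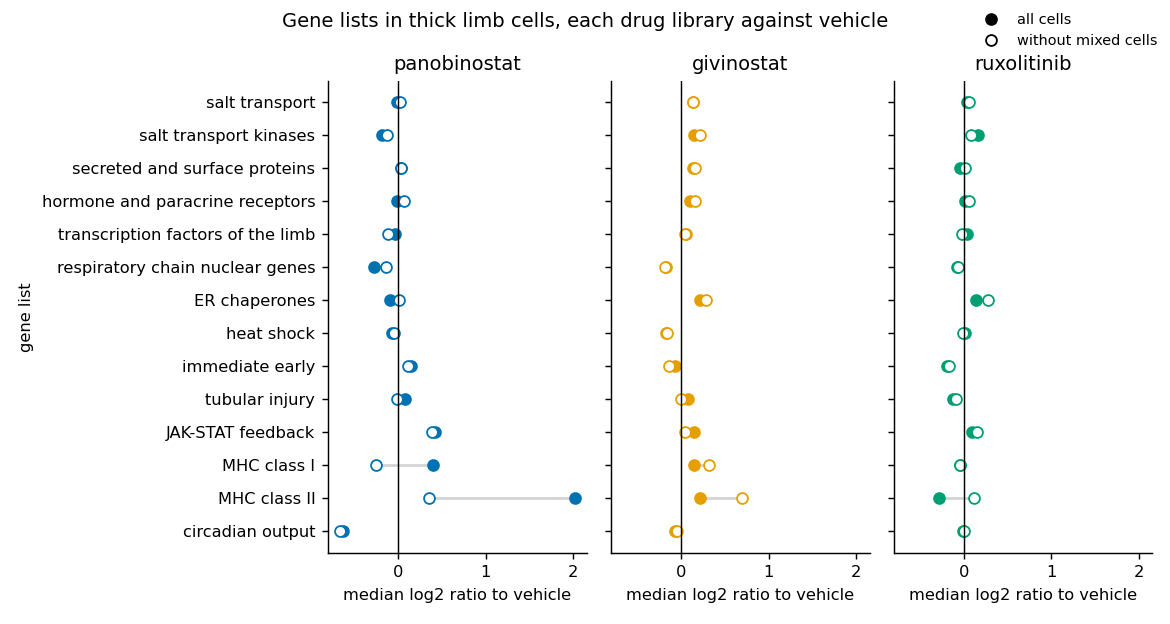
Median log2 ratio to vehicle of the gene lists in thick limb cells, 1 panel per drug, with 5 CPM added to each level, filled points for all thick limb cells, open points without the mixed cells, and n = 1 library per group. Circadian output genes lie below 0 with panobinostat (median -0.63), the MHC class II median is 2.02 with all cells and 0.35 without the mixed cells, where fewer members could be measured, and endoplasmic reticulum chaperones lie slightly above 0 with givinostat (0.21) and ruxolitinib (0.14).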

How the data were processed

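The authors deposited 1 matrix of raw UMI counts per gene and cell, made with Cell Ranger 3.0.1 on mm10 per the submitters' processing notes; filters on cells are not given in the sources used here. Cell names end in a library tag; 3 tags match a drug, and the tag CTRL was taken as vehicle, the only sample without a drug. The highest mitochondrial share was 40.0% in each library. Members and gene lists were chosen with earlier results of these data known. Counts were summed per library and scaled to CPM (Python 3.11.15, numpy 2.4.6, scipy 1.17.1, pandas 2.3.3), and the calculation was tested on simulated data with 200 genes altered. Interval bounds are exact (conditional binomial for ratios, Clopper-Pearson for shares; confidence 95%). No doublet caller was run; alternatives leave out possible doublets. edgeR 4.0.16 and DESeq2 1.42.0 gave scaling factors only. Named genes were the 8 highest and 8 lowest log2 ratios per drug among genes at 100 CPM or more (without mitochondrial, ribosomal, predicted, immunoglobulin, haemoglobin and other cell types' marker genes), limb lists' members at 20 CPM or more, in every other list the 4 most abundant and those past 1.5-fold at 100 CPM, and the 5 genes most like Umod; any further gene is named as chosen after its values were seen or as a member of a fixed list. Some named by this rule are not reported here. List counts, medians and sums leave out the genes that chose the cells. All cells were used, and no deposited column of per-sample values was left unused.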

Additional observations from a re-analysis of the deposited data

How the results depend on the processing

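No paired analysis was possible because each group has 1 library, and for the same reason no replicate could be left out. The counts of genes past 1.5-fold (94 panobinostat, 50 givinostat, 56 ruxolitinib) moved by more than 1.5 times in these cases. They were 248, 151 and 148 with a 50 CPM gene filter, 34, 15 and 23 with 200 CPM, 40, 14 and 18 with a fold of 2, and 145, 93 and 88 with a stricter cell filter (500 genes, 1000 UMIs, under 20% mitochondrial). Thinning to 4000 UMIs gave 92 for givinostat and 93 for ruxolitinib, totals without mitochondrial and ribosomal genes 82 and Lcn2 plus Igfbp2 at 0 gave 89 for givinostat, and leaving out mixed cells 57 for panobinostat. A fold of 2 left 12 genes higher in Cldn16 cells and 9 in Cldn10 cells, and without mixed cells 43 genes were higher than in the Lcn2 or Igfbp2 loop and 101 lower than in the Slc12a3 cells. Share ratios to vehicle ranged over the alternatives from 0.440 to 0.566 with panobinostat, 0.627 to 0.878 with givinostat and 0.797 to 1.11 with ruxolitinib. The givinostat interval reached past 1 with Lcn2 plus Igfbp2 at 0 UMIs (upper bound 1.13), the stricter cell filter (1.07), cells holding other types' markers left out (1.01) and the denominator of cells with no Ptprc UMI (1.19). The cause of these moves was not tested, except that a filter or fold sets how many genes can pass.

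Of 7476 single gene values under alternatives 41 changed sign, and of 1122 list medians 3. With possible doublets left out, panobinostat log2 ratios became -0.22 for Lsp1, -0.49 for Ccl4, -0.47 for Cd74 and for the MHC class II median, -0.50 for H2-Eb1, -0.58 for H2-Ab1, 0.32 for Myo5a, -0.94 for S100g, -1.08 for Nr4a1, -0.40 for Ifitm3, -1.0 for B2m, -0.05 for Pim1, -0.58 for Cxcl2, -0.18 for Crip1 and -0.54 for the macula densa median, givinostat ratios 0.50 for Tm4sf1 and -0.47 for Ifi27l2a, and ruxolitinib ratios 0.56 for Myo5a and 0.19 for Ctsl. Without mixed cells, panobinostat ratios became -0.52 for Ccl4, 0.43 for Myo5a, -0.53 for S100g, -0.98 for Nr4a1, -0.32 for B2m, -0.09 for Pim1, -0.58 for Cxcl2 and -0.21 for Crip1, givinostat 0.48 for Tm4sf1 and 0.26 for Vim, and ruxolitinib 0.38 for Vim and -0.27 for Hsd11b2. With Lcn2 plus Igfbp2 at 0, S100g was at -0.97, Hspa1b at -0.02, Cxcl2 at -1.49 and the macula densa median at -0.84 with panobinostat, and Hsd11b2 at -0.77 with ruxolitinib. Thinning gave Myo5a 0.23 and Cxcl2 -0.05 with panobinostat and Ccl4 -0.77 with ruxolitinib, 10 or more Slc12a1 UMIs gave Nr4a1 -0.12, and leaving out the cell with most UMIs of a gene gave Myo5a 0.12 with panobinostat and Myo5a 0.03, Ctsl 0.03 and Hsd11b2 -0.20 with ruxolitinib. The alternatives without mixed cells and without the top cell, and those for the claudin sides and the neighbouring cells, were chosen after seeing the data. Depth limits genes under about 100 CPM, which had few UMIs in the 663618 of the panobinostat cells.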

Other observations

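A few thick limb cells carried a macula densa pattern. The macula densa is the plaque of limb cells beside the glomerulus that senses luminal salt, and neuronal nitric oxide synthase (Nos1) and cyclooxygenase 2 (Ptgs2) are its known markers. Of 420 cells, 409 had no Nos1 UMI, 4 had 1 to 4, and 7 had 5 or more. Those 7 cells held 104 of the 108 Nos1 UMIs and numbered 0 of 130 with vehicle, 3 of 79 with panobinostat, 3 of 86 with givinostat and 1 of 125 with ruxolitinib. The cells were picked by Nos1 after its values were seen, so the following is a description. Robo2 was at 475 CPM in them and 9.25 CPM in the other 413 cells, Bmp3 at 369 and 9.04 CPM, Ptgs2 at 222 and 3.23 CPM, and Avpr1a at 52.8 and 2.58 CPM. Slc12a1 was about equal, at 5551 and 5443 CPM. Umod was at 718 CPM against 19803 CPM, and Egf at 63.3 CPM against 6385 CPM, with 6 Egf UMIs in 1 of the 7 cells. That panobinostat cell, with 28860 UMIs, was 1 of the mixed cells. It also held 36 of the 68 Umod UMIs and 23 of the 104 Nos1 UMIs of the 7 cells. With so few cells the spread of Nos1 over libraries (1.32, 52.7, 51.6 and 6.60 CPM) says little about the drugs.

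Among the genes whose levels followed Umod most closely from cell to cell were Atp1b1, Egf and Wfdc15b. Their mean Spearman correlations over the 4 libraries were 0.418, 0.385 and 0.383. Slc12a1, at 0.420, chose the cells, so its value is not a result. The correlations used 405 cells thinned to 4000 UMIs, which share library and depth, and carry no p.

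Among genes with near-identical copies, where reads can be split between the copies, Tpm3-rs7 was at 3.30, 3.01, 12.5 and 27.9 CPM and Gm10036 at 27.7, 19.6, 2.50 and 7.34 CPM in the order vehicle, panobinostat, givinostat and ruxolitinib.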
